A study of Mus musculus with 30 samples.

Results

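Whole-brain messenger RNA was compared between 24 months and 45 days of age in mice labelled Csa-/-. These were 10 of the 30 samples of the series, 5 at each age, chosen by the genotype and the age in their labels. Per the labels a sample was sequenced 5 times, so the 5 samples of a group came from 1 library and their counts were summed. They formed 2 of 6 libraries, 1 at each age. The study set 2 genotypes, Csa-/- and wild type, side by side at 45 days, 12 months and 24 months, and its title points to PI3K-Akt, MAPK, matrix, neuronal and inflammatory genes. No treatment was named for any group; all mice had food freely available and a 12-hour light cycle, whole brains were frozen and pulverised, and all samples carried the same batch number. The libraries of wild type at each age and of the Csa-/- label at 12 months are given beside the pair compared. Strain, sex, the number of animals in a library and the hour of sampling were not given in the sources used here.

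The gene named Csa is Ercc8. Its product is part of a ubiquitin ligase that acts when RNA polymerase stalls at damaged DNA, and its loss causes a form of Cockayne syndrome, a disorder of growth and of the nervous system. In the ageing mammalian brain, microglia and astrocytes are known to take on activated states with more complement, antigen-presentation and interferon-response transcripts. Myelin is laid down by oligodendrocytes in the first weeks after birth, so the young brain is known for high transcript levels of newly formed oligodendrocytes. Separately, it is known for high transcript levels of collagens.

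Ercc8 (chromosome 13, 108158731 to 108195364 of mm10, as are all coordinates unless stated) was not lower in the libraries with the Csa-/- label. Levels are in CPM (counts scaled to the library size, with TMM factors) and in the order 45 days, 12 months and 24 months. Ercc8 stood at 13.8, 13.0 and 13.5 CPM in the libraries labelled Csa-/- and at 13.5, 11.3 and 12.4 CPM in wild type. The 24-month level was 0.979 times that at 45 days (95% counting interval 0.831 to 1.16). Counts over a whole gene cannot show an interrupted transcript, so the label could not be checked from this level, and the libraries are named by their label throughout.

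Libraries held 14762512 counts at 45 days and 37712210 at 24 months, so that 3 counts amounted to 0.200 and 0.0798 CPM. Runs of a library held 2671390 to 3242682 and 6852896 to 8394376 counts. Runs differed from each other by somewhat more than their counting error. The mean chi-square over its degrees of freedom was 1.27 and 1.40, where counting error alone gives 1, and the median was 0.989 and 1.05. With 1 library per age there is no test of age within the Csa-/- label, and each difference compares these libraries. A gene was called higher or lower when it reached 5 CPM in the higher library and the exact 95% counting interval of its fold lay wholly beyond 1.5-fold. Such intervals cover counting error only, not the further spread between runs or the spread between mice. A gene at 5 CPM in a single library passed through the library where it was higher, which fixed its sign. All 20 general neuronal markers, all 20 astrocyte markers and 24 of 25 oligodendrocyte markers reached 5 CPM, against 2 of 18 markers of border macrophages and lymphocytes. Xist, the transcript of the inactive X chromosome, stood at 0.133 and 0.692 CPM and the Y-linked gene Ddx3y at 108 and 137 CPM, so both libraries carried male transcripts.

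Of 12528 genes, 940 (7.5%) were higher beyond 1.5-fold at 24 months and 1083 (8.64%) were lower, 16.1% together. Immune genes of glia, immediate early genes and clustered protocadherins stood above these shares among the higher genes, and myelin, respiratory chain and ribosomal protein genes among the lower ones. In wild type 410 of 12442 genes (3.3%) were higher and 469 (3.77%) were lower, 7.06% together. Folds ran with gene length and GC content. A spline of exonic length and GC content fitted 24.4% of the variance of the log2 folds, and after its removal 560 genes (4.49%) were higher and 616 (4.94%) lower, 9.43% together. Medians with this trend removed are therefore printed beside the plain ones for many lists. A median given alone is the plain one and still holds the trend. Wild-type medians are plain too unless stated otherwise.

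**Figure D1:**
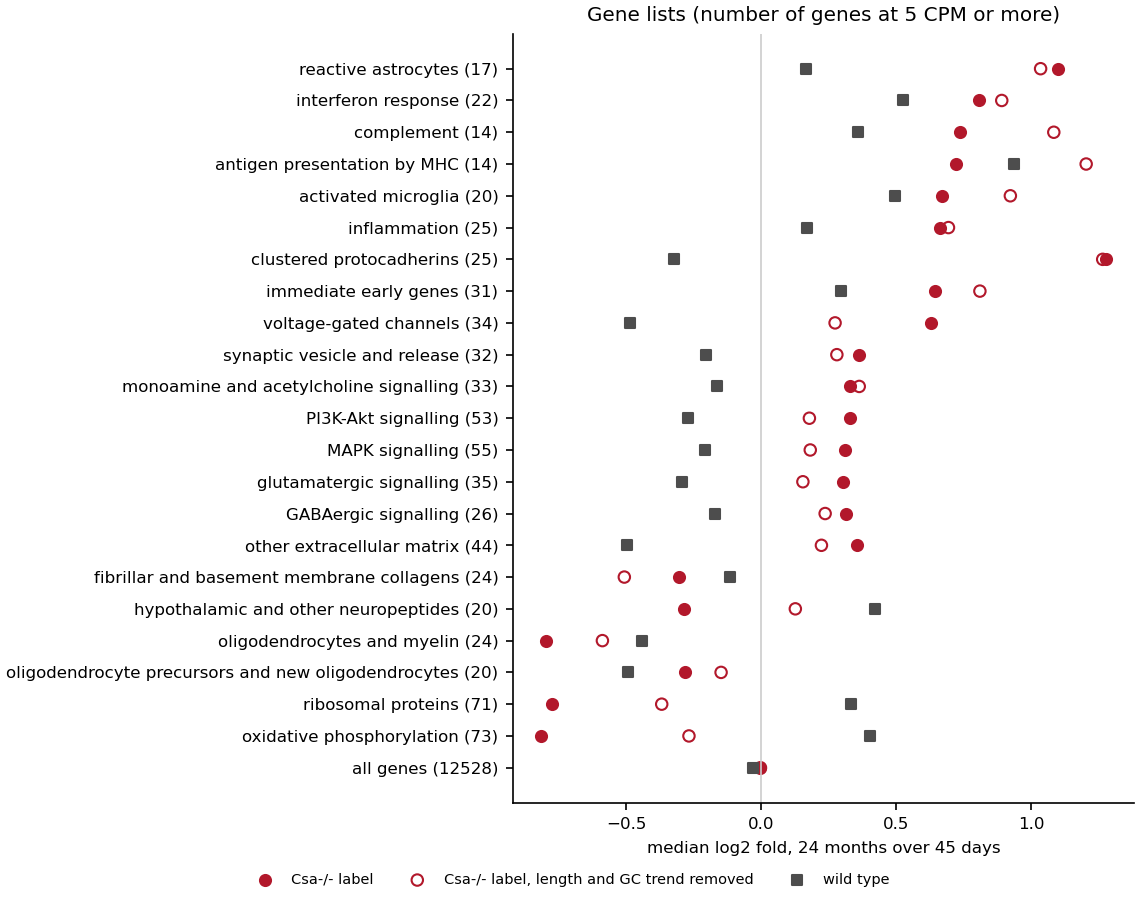
Median log2 fold of 24 months over 45 days for 22 gene lists and for all genes, with the number of genes at 5 CPM or more in brackets; filled circles are the Csa-/- label, open circles the same with the length and GC trend removed, and squares wild type over the same genes. Lists of immune and reactive glial genes lie right of 0 in both genotypes, protocadherins, channels, MAPK and PI3K-Akt genes lie on opposite sides of 0, and the respiratory chain and ribosomal lists lie left of 0 for the Csa-/- label (-0.82 and -0.78) and right of it in wild type (0.40 and 0.33). The squares of wild type still hold the trend. After its removal the wild-type medians of the respiratory chain and ribosomal lists were 0.03 and 0.09.

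Genes of activated microglia were higher in the older library, some of them by more than any other immune gene named here. Gpnmb encodes a glycoprotein of phagocytic cells, Itgax an integrin chain and Clec7a a receptor for fungal sugars, and all are transcripts of microglia near damaged tissue. Of 20 genes of this list at 5 CPM, 10 were higher and 1 lower, with a median log2 fold of 0.67 against -0.01 over all genes (0.92 with the trend removed; wild type 0.50). In bulk tissue, more cells of a type and more RNA per cell cannot be told apart.

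Gpnmb (chromosome 6, 49036546 to 49070929) stood at 1.40, 8.14 and 29.2 CPM in the libraries labelled Csa-/- and at 0.665, 2.57 and 5.83 CPM in wild type. Its runs lay between 0 and 2.34 CPM at 45 days and between 26.9 and 32.2 CPM at 24 months, with no overlap, and the level was 20.9-fold higher (13.6 to 33.8). Itgax (chromosome 7, 128129547 to 128150657) had 7 counts at 45 days, stood at 0.467, 5.70 and 7.93 CPM and was 17.0-fold higher (8.14 to 42.6). Clec7a stood at 1.60, 7.53 and 12.3 CPM and was 7.66-fold higher (5.09 to 12.1). In wild type Itgax (0.570, 0.482 and 2.32 CPM) and Clec7a (1.04, 0.910 and 3.54 CPM) were near their youngest level at 12 months and higher only at 24 months, while the 12-month library labelled Csa-/- already held most of the difference. Runs of the 2 ages did not overlap for Itgax (0 to 0.737 against 6.57 to 8.54 CPM) or for Clec7a (0.314 to 2.50 against 9.78 to 14.8 CPM). Trem2, the receptor through which microglia sense lipids, was 1.93-fold higher and Apoe, a lipid carrier, 1.64-fold. The lysosomal genes Cd68 (2.44-fold), Lyz2 (1.99-fold), Ctsd (1.85-fold) and Ctss (1.83-fold) were higher as well. Fabp5, a fatty-acid carrier, was the 1 member lower (1.81-fold). In the list of lysosome genes as a whole, 8 of 33 were higher and 1 was lower (median 0.27), among them Man2b1 (1.89-fold), which degrades sugar chains. With the trend removed 4 of these genes were higher and none lower, and Man2b1 was no longer called.

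Genes of resting microglia stood nearer to their level at 45 days. Of 14 genes, 4 were higher and none lower, with a median of 0.09 (0.49 with the trend removed; wild type 0.20). Trem2, which stands in the activated list as well, was among the 4. P2ry12, the purine receptor of surveying microglia, stood at 32.9, 19.3 and 37.7 CPM, and Tmem119, a surface protein of microglia, at 16.8, 18.5 and 14.9 CPM, neither beyond 1.5-fold. The growth-factor receptor gene Csf1r (1.66-fold), the chemokine receptor gene Cx3cr1 (1.64-fold) and Sall1 (1.73-fold), a transcription factor of microglia, were higher. These calls were near the bound. Cx3cr1 lost its call in 7 of 15 settings and Csf1r in 6, among them library totals as scaling, counts thinned to the 45-day total and single runs left out. Csf1r and Sall1 lost theirs with the trend removed. Markers of border macrophages and lymphocytes had a summed level of 31.8 CPM at 45 days and 33.1 CPM at 24 months.

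Complement transcripts were higher in the older library, led by C4b and C3, the components whose fragments the cascade deposits on its targets. C4b (chromosome 17, 34728380 to 34743882) stood at 18.5, 136 and 185 CPM and at 18.9, 39.0 and 80.7 CPM in wild type. Its runs lay between 14.4 and 23.1 CPM at 45 days and between 173 and 198 CPM at 24 months, and it was 9.99-fold higher (8.86 to 11.3), against 4.27-fold in wild type. Runs did not overlap, and both genotypes began at nearly the same level while the Csa-/- label was higher at each later age. C3 stood at 0.801, 5.63 and 6.39 CPM and was 7.98-fold higher (4.48 to 15.7), whereas wild type had 2.56, 1.18 and 3.17 CPM. Of 14 complement genes, 6 were higher and none lower (median 0.74; 1.08 with the trend removed; wild type 0.36). The receptor genes Itgb2 (3.17-fold), C3ar1 (2.96-fold) and Itgam (2.21-fold) and the initiating component C1qc (1.86-fold) made up the other called members. C1qa (log2 fold 0.70) and C1qb (0.41), the other chains of C1q, were below the bound, and beyond it with the trend removed.

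**Figure D2:**
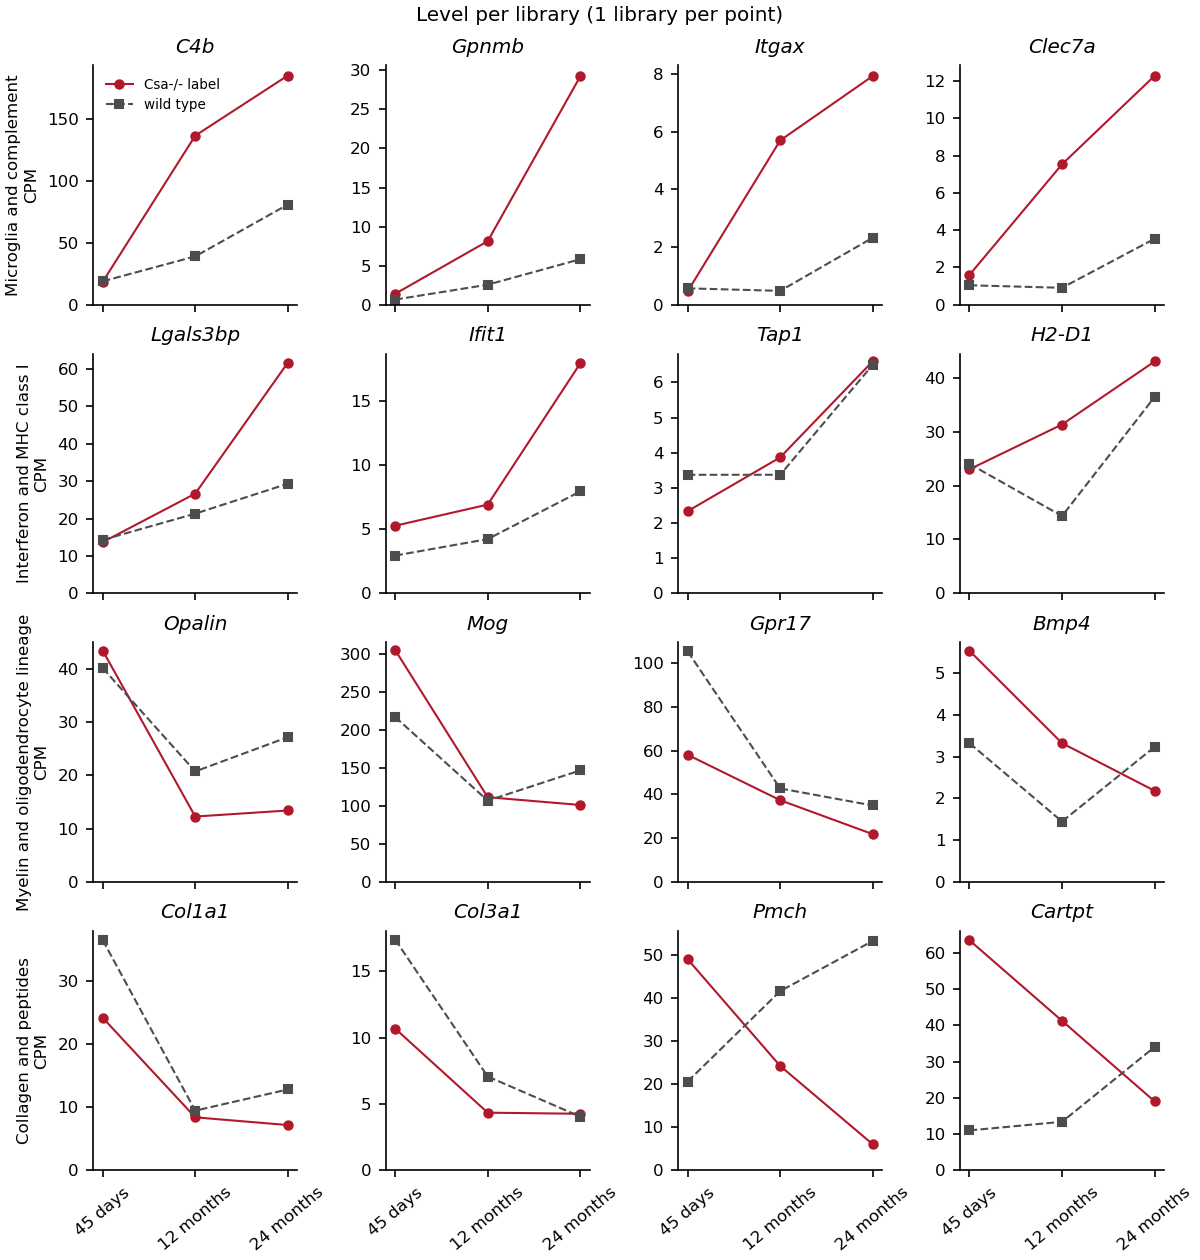
Level in CPM of 16 genes in each of the 6 libraries, 1 library per point, with the Csa-/- label in red circles and wild type in grey squares; ages are set at equal distances and each panel starts at 0. Gpnmb, C4b, Itgax and Clec7a climb from 45 days to 24 months under the Csa-/- label, Opalin and Mog are highest at 45 days, and Pmch and Cartpt run in opposite directions in the 2 genotypes.

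Interferon-response genes at 5 CPM were higher at 24 months without exception in sign. All 22 members at 5 CPM had a log2 fold above 0, 9 were beyond 1.5-fold and none was lower (median 0.81; 0.89 with the trend removed). Members such as Ifih1 (3.74 CPM at 45 days and 11.6 CPM at 24 months) reached that minimum at 24 months only, which fixed their sign. The summed level of all 36 members was 269 CPM at 45 days and 474 CPM at 24 months. The list was higher in wild type too, by a smaller median (0.52), with 7 genes beyond 1.5-fold. Lgals3bp, a secreted glycoprotein, led the list at 13.7, 26.7 and 61.7 CPM and was 4.51-fold higher (3.91 to 5.23). Its wild-type levels were 14.3, 21.3 and 29.3 CPM, so the level was higher at each later age in both genotypes. Ifit1, which binds viral RNA ends, stood at 5.27, 6.92 and 17.9 CPM and was 3.40-fold higher (2.69 to 4.35), with runs of 3.92 to 6.64 CPM at 45 days and 16.0 to 19.8 CPM at 24 months. Oasl2 (3.14-fold), of the oligoadenylate synthetase family, and the RNA sensors Ifih1 (3.11-fold), Ddx58 (2.23-fold) and Eif2ak2 (2.41-fold) were higher too. Ifit3 (2.80-fold) and Ifit3b (2.48-fold) are near-identical copies, and their counts are uncertain, since the sources used here do not say how reads were divided between them.

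The promoters of Ifit1 and Ifit3 are shown because both transcripts were among the higher members and because both hold the interferon-stimulated element in the 250 bases before the start. The letters searched were GAAA, any 2 bases and GAAA again, on both strands, and matches are in capitals, here all in the reverse complement. Sequences run 5′ to 3′ on the gene's strand, from RefSeq GRCm38.p6, at chr19:34640639-34640888, forward strand for Ifit1 and chr19:34583279-34583528, forward strand for Ifit3.
Ifit1: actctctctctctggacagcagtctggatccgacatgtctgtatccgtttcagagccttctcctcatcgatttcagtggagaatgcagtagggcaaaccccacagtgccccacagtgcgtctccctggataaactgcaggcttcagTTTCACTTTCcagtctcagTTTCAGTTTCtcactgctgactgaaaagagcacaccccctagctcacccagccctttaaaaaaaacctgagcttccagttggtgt
Ifit3: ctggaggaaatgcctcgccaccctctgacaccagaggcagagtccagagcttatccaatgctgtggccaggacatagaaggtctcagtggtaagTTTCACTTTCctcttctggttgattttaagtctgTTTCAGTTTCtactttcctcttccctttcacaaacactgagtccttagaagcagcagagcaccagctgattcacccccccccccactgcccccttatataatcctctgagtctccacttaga
Each window holds a pair of matches, ending 76 bases before the start in Ifit1 and 113 bases before it in Ifit3. The element was found in 936 of 27025 promoters (3.46%), in 12 of the 25 interferon-response genes with a window, and in 3 of the 8 called higher that had one. A match is a description of letters and says nothing about binding.

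Antigen-presentation genes differed by class. The transporter genes Tap2 and Tap1, which carry peptides to class I molecules, stood at 2.40, 9.36 and 8.22 CPM and 2.34, 3.87 and 6.60 CPM. Tap2 was 3.42-fold higher (2.42 to 4.98) and Tap1 2.83-fold higher (1.98 to 4.15), and Nlrc5, a regulator of class I genes, was 2.91-fold higher. The class I genes H2-D1 (23.0, 31.3 and 43.0 CPM, 1.87-fold) and H2-Q4 (2.51-fold) were higher, and counts may be shared with related copies. The class II genes H2-Aa (10.2, 12.9 and 8.92 CPM) and H2-Ab1 (5.40, 5.29 and 4.92 CPM) were not beyond 1.5-fold, although both were in wild type (4.84, 6.42 and 14.0 CPM for H2-Aa, 3.99, 3.80 and 8.86 CPM for H2-Ab1). Psmb10, a subunit of the immunoproteasome, was 1.91-fold lower, a call lost with the trend removed. Of 14 genes, 6 were higher and 1 lower (median 0.72; 1.20 with the trend removed; wild type 0.94).

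Inflammation genes as a list had 8 of 25 members higher and 1 lower, with a median of 0.66 (0.69 with the trend removed; wild type 0.17). Tlr2, a receptor for bacterial lipopeptides, stood at 2.47, 5.90 and 7.03 CPM and was 2.85-fold higher (2.01 to 4.13). The alarmin gene Il33, which mature oligodendrocytes also express, stood at 49.4, 66.1 and 113 CPM and was 2.28-fold higher. The cytokine receptor genes Tnfrsf1b (2.19-fold), Il6st (1.99-fold) and Il1r1 (1.90-fold), the adhesion gene Icam1 (2.18-fold), the cyclooxygenase gene Ptgs2 (1.97-fold) and Stat3 (1.69-fold), which carries the signal of Il6st, were higher too. Il6st, Il1r1 and Stat3 lost their call with the trend removed. The exception was S100a8, a calcium-binding protein of neutrophils, at 8.61, 0.678 and 0.479 CPM and 1.57, 0.214 and 3.10 CPM in wild type. Its level at 45 days set that library apart from the other 5, and at 24 months it was 18.0-fold lower (10.9 to 31.3). Blood markers summed to 91.4 and 95.7 CPM at 45 days and 24 months, and their part in this gene's level was not tested.

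Reactive astrocyte genes were higher while general astrocyte markers were mostly near their young level. In the reactive list 11 of 17 genes were higher and none lower, with a median of 1.10 (1.03 with the trend removed). The wild-type median over the same genes was 0.17, with 1 gene beyond 1.5-fold. Gfap, the intermediate filament of astrocytes (chromosome 11, 102887336 to 102900912), stood at 255, 551 and 608 CPM, with runs of 239 to 278 CPM at 45 days and 592 to 633 CPM at 24 months, and was 2.38-fold higher (2.30 to 2.47). Wild type had 274, 190.1 and 329.5 CPM, so the genotypes were close at 45 days and further apart at both later ages, and the runs of the pair compared did not overlap. Osmr, the receptor for oncostatin M, stood at 5.27, 6.99 and 15.1 CPM (5.13, 7.97 and 3.74 CPM in wild type) and was 2.86-fold higher (2.26 to 3.67). The hyaluronan receptor gene Cd44 (2.45-fold), the copper-binding ferroxidase gene Cp (2.38-fold), the fibulin gene Fbln5 (2.36-fold), the glycosyltransferase gene Ggta1 (2.52-fold) and the filament gene Vim (1.68-fold) were higher. Serpina3n, a protease inhibitor induced in reactive astrocytes, stood at 44.5, 81.9 and 70.5 CPM and was 1.58 times its young level (1.45 to 1.73), which was not wholly beyond the bound, although it was with the trend removed.

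Of 20 general astrocyte genes, 2 were higher and 2 lower (median 0.25), near the 7.5% and 8.64% of all genes. The bicarbonate transporter gene Slc4a4 (2.05-fold) and the glutamate transporter gene Slc1a2 (1.78-fold) were the higher members, and the neurotensin receptor gene Ntsr2 (2.05-fold) and Id3 (1.93-fold), an inhibitor of transcription factors, the lower ones. Slc1a2 and Id3 lost their call with the trend removed.

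Myelin genes were lower in the older library. Of 24 genes of oligodendrocytes and myelin, 14 were lower and 2 higher, with a median of -0.80 (-0.59 with the trend removed; wild type -0.44). The list's summed level was 26167, 15850.3 and 12878 CPM, and 20918, 13367 and 17808 CPM in wild type. Mog, a surface glycoprotein of myelin (chromosome 17, 37010743 to 37023398), stood at 305, 111 and 101 CPM (217, 107 and 147 CPM in wild type) and was 3.02-fold lower (2.89 to 3.15). Opalin, a membrane protein of myelinating oligodendrocytes, stood at 43.5, 12.3 and 13.4 CPM and was 3.24-fold lower (2.88 to 3.65). In both genes the step lay between 45 days and 12 months, with little further difference to 24 months.

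Other lower members were Mobp (2.42-fold), Mal (2.15-fold), and Fa2h (2.11-fold) and Ugt8a (1.92-fold), enzymes that make myelin lipids. Mbp, whose basic protein compacts myelin, stood at 6677, 5969.6 and 3799 CPM and was 1.76-fold lower. Its wild-type levels of 5927, 3916 and 6979 CPM did not differ beyond 1.5-fold between the same ages. The exceptions were Apod (1.98-fold higher), a lipocalin that increases in the aged brain, and Il33. Sox10, the lineage's transcription factor, stood at 26.2, 38.3 and 29.6 CPM and was not called. Marker sums of thalamus and brainstem (818 and 827 CPM) and of cerebellum (3381 and 3429.9 CPM), regions that differ in myelin, were close at the 2 ages, while those of cortex and hippocampus were 3314 and 4399 CPM. Their part in the result was not tested.

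Precursors and newly formed oligodendrocytes were mixed, with 4 of 20 genes lower and 3 higher (median -0.28; wild type -0.50). With the trend removed 3 were lower and 1 higher (median -0.15). The transcript 9630013A20Rik, a marker of newly formed oligodendrocytes, stood at 15.1, 0.475 and 1.49 CPM and 7.93, 1.23 and 0.303 CPM in wild type and was 10.1-fold lower (7.52 to 13.8). Gpr17, a receptor of cells about to differentiate, stood at 58.2, 37.4 and 21.8 CPM and was 2.67-fold lower (2.42 to 2.94), with a lower level in wild type as well (106, 42.8 and 35.0 CPM). The growth factor gene Bmp4 was 2.54-fold lower, a call lost with the trend removed. The matrix gene Tnr, encoding tenascin-R, went the other way at 26.9, 79.6 and 83.1 CPM and was 3.09-fold higher (2.79 to 3.44), whereas wild type stood at 83.9, 69.8 and 27.6 CPM.

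Genes of immature neurons held a share of lower genes above the 8.64% of all genes, with 6 of 26 lower and none higher (median -0.11). After the trend was removed 2 were lower and 1 higher (median -0.03). Sox11 (2.17-fold) and Neurod1 (2.05-fold), transcription factors of new neurons, were lower, and Dcx, their microtubule protein, stood at 44.7, 43.0 and 58.6 CPM and was not called. General neuronal markers had 3 of 20 genes higher and 3 lower (median 0.04).

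Collagens leaned lower and other matrix genes higher. Of 24 collagen genes, 2 were lower and 1 higher, with a median of -0.31 (-0.51 with the trend removed, when 7 were lower). The plain share lower was close to the 8.64% of all genes. Col1a1 (chromosome 11, 94936224 to 94953042), a chain of the main fibrillar collagen, stood at 24.2, 8.41 and 7.19 CPM and 36.6, 9.47 and 12.8 CPM in wild type. Its runs lay between 21.8 and 26.9 CPM at 45 days and between 6.74 and 7.89 CPM at 24 months, and it was 3.37-fold lower (2.87 to 3.96). Col3a1 stood at 10.7, 4.34 and 4.26 CPM and was 2.51-fold lower (2.00 to 3.14). Both collagens were highest in the 45-day library of each genotype. Without the 3 collagen genes that the list also holds, markers of mural cells and fibroblasts summed to 892 and 808 CPM.

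Among 44 other matrix genes, 11 were higher and 2 lower, with a median of 0.35 (0.22 with the trend removed). In wild type none of them was higher and 10 were lower, with a median of -0.50. The secreted protease gene Adamts1 (9.07, 18.4 and 21.2 CPM, 2.33-fold), the adhesion protein gene Thbs1 (2.80, 4.34 and 7.13 CPM, 2.55-fold) and the laminin gene Lama3 (3.87, 7.39 and 8.49 CPM, 2.19-fold) were among the higher genes, and Lama3 lost its call with the trend removed.

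Clustered protocadherins were higher as a list. They encode cell-surface proteins by which neurons recognise their own branches, and single neurons choose most of their promoters at random. All 25 members at 5 CPM had a log2 fold above 0, 18 were higher beyond 1.5-fold and none was lower. Some members, such as Pcdhb2, reached that minimum at 24 months only, which fixed their sign. The median was 1.28, and 1.26 with the trend removed, while wild type had -0.32 and 6 genes lower. The summed level of all 33 members was 207, 404 and 442 CPM, and 400.1, 411 and 274 CPM in wild type. The 45-day library labelled Csa-/- was therefore the lowest of the 6, and the 24-month library of wild type came next.

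Pcdhga2 stood at 2.27, 10.2 and 16.0 CPM with runs of 0.714 to 3.34 CPM at 45 days and 14.5 to 17.0 CPM at 24 months, and was 7.05-fold higher (4.99 to 10.3). Pcdhb2 had 4 counts at 45 days, stood at 0.267, 3.66 and 5.19 CPM and was 19.4-fold higher (7.47 to 72.1). Pcdhgb6 stood at 3.47, 13.6 and 14.8 CPM (9.73, 12.2 and 7.88 CPM in wild type) and was 4.27-fold higher (3.21 to 5.79). These isoforms of the beta and gamma clusters were thus all lowest in the 45-day library labelled Csa-/- among the 6, with no overlap of runs for Pcdhga2. The C-type isoform genes Pcdhac2 (20.3, 36.0 and 40.8 CPM, 2.01-fold) and Pcdhgc5 (19.5, 56.3 and 47.2 CPM, 2.42-fold) were higher as well and were lower beyond 1.5-fold in wild type (40.4, 38.9 and 20.0 CPM for Pcdhac2, 71.6, 60.9 and 35.4 CPM for Pcdhgc5). Isoforms of the gamma cluster share their last exons and those of the beta cluster are close copies, so counts of single members are uncertain.

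Immediate early genes, which neurons switch on within minutes of activity, were higher in the older library. Of 31 genes, 13 were higher and none lower, with a median of 0.64 (0.81 with the trend removed; wild type 0.30). Fosb stood at 5.14, 14.9 and 13.8 CPM and was 2.69-fold higher (2.11 to 3.46), and in wild type it stood at 3.94, 12.4 and 11.3 CPM. Junb stood at 12.5, 28.4 and 32.8 CPM (11.1, 36.6 and 17.4 CPM in wild type) and was 2.61-fold higher (2.24 to 3.06), with runs of 7.84 to 17.3 CPM at 45 days and 28.8 to 34.9 CPM at 24 months. Nr4a1, an orphan nuclear receptor, stood at 58.6, 118 and 134 CPM (39.3, 141 and 66.0 CPM in wild type) and was 2.29-fold higher (2.13 to 2.46). Runs of Junb did not overlap, and for all 3 genes the 45-day library of each genotype was the lowest of its genotype. Other higher members were Egr2 (2.51-fold), Sik1 (2.47-fold), Fosl2 (2.19-fold), Npas4 (2.10-fold), Fos (2.06-fold), Arc (1.61-fold) and Dusp1 (1.91-fold). Egr3 (log2 fold -0.04) and Bdnf (-0.49), which belong to the same programme, were not called.

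The promoters of 3 of these genes are shown with the letters TGACG, the core of the element bound by CREB, searched on both strands and printed in capitals (CGTCA where it lies on the opposite strand). Each is the 250 bases before the RefSeq start in GRCm38.p6, 5′ to 3′ on the gene's strand, at chr7:19310046-19310295, reverse strand for Fosb, chr8:84978749-84978998, reverse strand for Junb and chr15:101266596-101266845, forward strand for Nr4a1.
Fosb: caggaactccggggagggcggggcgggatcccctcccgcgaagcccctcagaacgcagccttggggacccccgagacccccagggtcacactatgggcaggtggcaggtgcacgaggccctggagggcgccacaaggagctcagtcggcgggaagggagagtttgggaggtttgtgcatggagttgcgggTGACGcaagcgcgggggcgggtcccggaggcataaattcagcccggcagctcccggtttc
Junb: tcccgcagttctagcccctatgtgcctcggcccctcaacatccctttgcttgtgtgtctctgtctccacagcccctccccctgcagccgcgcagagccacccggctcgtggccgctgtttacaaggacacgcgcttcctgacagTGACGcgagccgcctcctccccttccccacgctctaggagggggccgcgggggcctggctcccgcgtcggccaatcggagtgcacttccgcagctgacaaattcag
Nr4a1: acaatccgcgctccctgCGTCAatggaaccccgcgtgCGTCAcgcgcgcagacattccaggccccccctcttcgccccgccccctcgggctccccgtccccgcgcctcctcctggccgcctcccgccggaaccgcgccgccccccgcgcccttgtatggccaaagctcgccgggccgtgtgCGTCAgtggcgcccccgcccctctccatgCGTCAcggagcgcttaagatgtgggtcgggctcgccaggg
The core was present in 5347 of 27025 promoters (19.8%), in 20 of the 26 immediate early genes with a window, and in 9 of the 11 called higher that had one. The full palindrome TGACGTCA, which contains the core, was present in 478 promoters (1.77%), in 4 of the 26 and in 1 of the 11. Nothing about binding follows from these letters.

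Stress-hormone targets and clock genes had few called members. Of 23 glucocorticoid targets, 3 were higher and none lower (median 0.06; 0.31 with the trend removed). Plin4, a lipid-droplet protein, was 3.05-fold higher (2.49 to 3.76), and Per1, a clock gene in both lists, 2.05-fold higher at 98.0, 173 and 201 CPM. The kinase gene Sgk1 stood at 394, 181 and 359 CPM, against 67.9, 106 and 91.1 CPM in wild type, and was not called. Of 21 clock genes, 2 were higher, near the 7.5% of all genes, and none lower (median 0.25).

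Neuronal signalling lists had medians above 0 under the Csa-/- label. Voltage-gated channels had the highest of them, with 14 of 34 genes higher and none lower (median 0.63). After removal of the trend the median was 0.27 and 3 genes were higher. Kcnh7, a potassium channel of the ERG family, stood at 15.1, 41.5 and 41.9 CPM (30.6, 34.9 and 16.8 CPM in wild type) and was 2.77-fold higher (2.41 to 3.19). Its 45-day level was below the other 2 of its genotype, while in wild type the 24-month level was the lowest. The potassium channel genes Kcna4 (1.86-fold) and Kcna1 (1.73-fold) kept their call with the trend removed, and the sodium channel genes Scn2a (1.78-fold) and Scn1a (1.59-fold) did not.

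Transmitter systems gave medians between 0.30 and 0.36, and between 0.15 (glutamatergic) and 0.36 (acetylcholine and monoamine) with the trend removed. In the glutamatergic list 6 of 35 genes were higher, among them the receptor genes Grin2b (2.01-fold), Grik3 (1.83-fold) and Grm5 (1.77-fold), and with the trend removed none was called higher and 1 lower. The GABAergic list had 7 of 26 higher and 2 lower. Gad2, an enzyme that makes GABA, stood at 166, 257 and 395 CPM (242, 349 and 181 CPM in wild type) and was 2.37-fold higher (2.28 to 2.48), and its paralog Gad1 was 1.90-fold higher. Pvalb, a calcium buffer of fast-spiking interneurons, was 1.82-fold lower, a call lost with the trend removed. The list of acetylcholine and monoamine signalling had 6 of 33 higher and none lower. Chrm2, a muscarinic receptor, stood at 3.40, 10.6 and 12.3 CPM (9.54, 9.47 and 3.60 CPM in wild type) and was 3.61-fold higher (2.70 to 4.93). Adra1a (3.05-fold), Htr2a (2.80-fold) and Chrna7 (2.17-fold), receptors for noradrenaline, serotonin and acetylcholine, followed. In all 4 receptor genes the 45-day library was the lowest under the Csa-/- label, whereas in wild type the 24-month library was the lowest. Synaptic vesicle genes had 8 of 32 higher and none lower, with Syt1, the calcium sensor of release, at 737, 879 and 1424 CPM and 1.93-fold.

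MAPK and PI3K-Akt genes, named in the study's title, held a share of higher genes above the 7.5% of all genes. Fewer of them were called with the trend removed, and the MAPK share of higher genes was then not above that of all genes. In the MAPK list 8 of 55 were higher and 2 lower (median 0.31; wild type -0.21). After removal 2 were higher and 3 lower (median 0.18; wild type -0.06), near the 4.49% and 4.94% of all genes. Rasgrf1, an exchange factor that activates Ras in neurons, stood at 287, 551 and 652 CPM and was 2.27-fold higher (2.20 to 2.34). Nf1, which switches Ras off, was 2.15-fold higher, a call lost with the trend removed. The p38 kinase gene Mapk11 stood at 102, 52.2 and 37.4 CPM and was 2.72-fold lower (2.52 to 2.92). Members with opposite roles in the pathway were thus among the higher genes.

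The PI3K-Akt list had 11 of 53 higher and 1 lower, and 4 and 1 with the trend removed (median 0.33 and 0.18). In wild type the median was -0.27, with 7 lower and none higher, and -0.11 with the trend removed. Integrins, the matrix receptors upstream of the pathway, led it. Itgb8 (chromosome 12, 119158022 to 119238802), the chain that pairs with the alpha-v subunit, stood at 7.67, 36.6 and 35.1 CPM and was 4.58-fold higher (3.78 to 5.59), with runs of 6.68 to 8.51 CPM and 31.9 to 37.5 CPM. In wild type it stood at 36.6, 23.5 and 10.7 CPM, so that the order of ages differed, and was 3.41-fold lower at 24 months. Its partner chain gene Itgav stood at 60.5, 98.8 and 141 CPM and was 2.34-fold higher (2.18 to 2.51). Foxo3, a transcription factor that Akt restrains, stood at 14.4, 34.3 and 34.7 CPM (36.0, 27.6 and 15.6 CPM in wild type) and was 2.41-fold higher (2.08 to 2.79).

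Among neuropeptide genes Pmch and Cartpt were lower with large folds, and the list as a whole had no direction that held with the trend removed. Pmch, which encodes melanin-concentrating hormone in the lateral hypothalamus (chromosome 10, 88091072 to 88092375), stood at 49.0, 24.2 and 6.04 CPM, with runs of 42.8 to 54.2 CPM at 45 days and 5.02 to 6.83 CPM at 24 months, and was 8.11-fold lower (6.98 to 9.45). Wild type stood at 20.6, 41.6 and 53.2 CPM, the opposite order, and the runs did not overlap. Hcrt, the orexin gene of the same hypothalamic area, stood at 4.07, 2.17 and 0.399 CPM (1.47, 2.84 and 5.69 CPM in wild type), under the 5 CPM needed for a call. Cartpt, a peptide of feeding circuits, stood at 63.5, 41.2 and 19.0 CPM (11.0, 13.4 and 34.0 CPM in wild type) and was 3.33-fold lower (3.02 to 3.68). Nts (2.59-fold), Npy (1.90-fold), Cck (1.77-fold) and Pnoc (1.76-fold) were lower as well, all of them calls lost with the trend removed. Of 20 genes, 6 were lower and none higher, with a median of -0.29 that changed sign to 0.13 with the trend removed. Then 3 were higher and 2 lower (Pmch and Cartpt). Penk and Sst, peptides of striatum and of interneurons, were not called (225, 211 and 223 CPM for Penk, 204, 110.4 and 134 CPM for Sst). Without the 5 neuropeptide genes that its list also holds, Pmch among them, the summed level of 14 regional factors of the hypothalamus was 100.2 CPM at 45 days and 106 CPM at 24 months, with 2 of them at 0 in each library.

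Respiratory chain and ribosomal protein genes were lower as lists, and so were short genes in general. Of 73 genes of oxidative phosphorylation, 45 were lower and none higher (median -0.82). In wild type 14 were higher and none lower (median 0.40). Among 71 ribosomal protein genes, 37 were lower and none was above 0 (median -0.78; wild type 0.33). Some of them, such as Rps12 (9.94 CPM at 45 days and 3.14 CPM at 24 months), reached 5 CPM at 45 days only, which fixed their sign. With the trend removed 11 respiratory chain and 14 ribosomal protein genes were lower, with medians of -0.27 and -0.37, and none was higher. The wild-type medians were then 0.03 and 0.09.

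Ndufb2, a subunit of complex I, stood at 258, 80.9 and 81.8 CPM (84.8, 76.7 and 143 CPM in wild type) and was 3.15-fold lower (3.01 to 3.31). Atp5e, of the ATP synthase, stood at 259, 98.1 and 84.2 CPM and was 3.07-fold lower (2.93 to 3.22). Rps21, of the small ribosomal subunit, stood at 449, 214 and 142 CPM (173, 165 and 342 CPM in wild type) and was 3.15-fold lower (3.04 to 3.27). For all 3 the 45-day library labelled Csa-/- was the highest of the 6. Mrpl36, of the mitochondrial ribosome, had the same form at 139.7, 63.0 and 37.0 CPM and was 3.77-fold lower (3.52 to 4.04). Uqcr11, of complex III, was 2.81-fold lower and lost its call with the trend removed. Related processed copies exist for many ribosomal protein genes, so counts of single members are uncertain.

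Exonic length ordered the medians without exception. Genes under 500 bases had a median log2 fold of -0.96, those of 500 to 1000 bases -0.82, those of 1000 to 2000 bases -0.57 and those of 2000 to 4000 bases -0.21. Longer genes stood above 0, with 0.08 at 4000 to 8000 bases and 0.35 beyond. Of 2569 genes of at least 8000 bases, 506 were higher and 35 lower. Wild type had the reverse order, from 1.19 in the shortest class to -0.28 in the longest. Small nucleolar RNA genes, which lie in introns of host genes and guide the modification of ribosomal RNA, sat at the short end. Of 40 at 5 CPM, 26 were lower and 1 higher (median -1.05; wild type 1.27). Members such as Snord15b (11.0 CPM at 45 days and 2.90 CPM at 24 months) reached that level at 45 days only, which fixed their sign. Snord42b stood at 20.4, 12.2 and 5.03 CPM and was 4.05-fold lower (3.36 to 4.88). With the trend removed the median of the small nucleolar RNA genes was -0.14, and 0.14 in wild type.

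**Figure D3:**
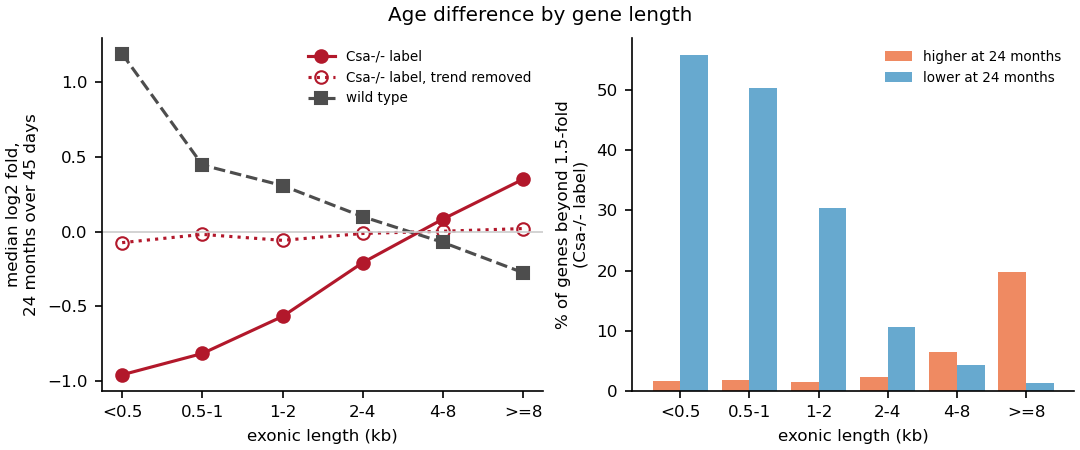
Left, median log2 fold of 24 months over 45 days in 6 classes of exonic length for the Csa-/- label (red), the same with the length and GC trend removed (open circles) and wild type (grey squares); right, the percentage of genes of each class called higher or lower beyond 1.5-fold under the Csa-/- label. The median runs from -0.96 in the shortest class to 0.35 in the longest under the Csa-/- label and from 1.19 to -0.28 in wild type.

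Genes of DNA repair and damage signalling were near their young level. Of 23 nucleotide excision repair genes, the pathway that contains Ercc8, 1 was higher and 2 were lower (median -0.03), below the shares of all genes or close to them. Polr2a, the large subunit of RNA polymerase II, stood at 65.5, 118 and 147 CPM and was 2.25-fold higher (2.10 to 2.41). Ercc1 (1.77-fold), a nuclease subunit, and Elof1 (1.74-fold), an elongation factor, were lower and lost their call with the trend removed. Ercc6, which encodes the partner protein lost in the other form of Cockayne syndrome, stood at 32.8, 36.4 and 41.5 CPM and was not called. In the p53 list 1 of 23 genes was higher and 1 lower (median 0.07), the stress sensors Gadd45b (2.21-fold) and Gadd45a (2.12-fold). Gadd45a lost its call with the trend removed, when 2 genes of the list were higher and none lower (median 0.09). The call of Gadd45b was lost in 8 of 15 settings, which included other scalings and single runs left out. Cdkn1a, the cell-cycle inhibitor that p53 induces, stood at 24.8, 23.0 and 28.5 CPM and was not called. Of 10 senescence genes, 2 were higher (median 0.18; 0.40 with the trend removed). They included the growth-factor binding gene Igfbp5 (1.71-fold), which lost its call with the trend removed.

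Chaperones and antioxidant genes had more lower than higher members, which for the antioxidant genes did not hold with the trend removed. Of 23 heat shock genes, 6 were lower and 1 higher (median -0.26), with the co-chaperone gene Bag3 2.09-fold higher and the small heat shock gene Cryab 1.88-fold lower. After removal of the trend Cryab was no longer called, and 3 genes were lower and 1 higher (median -0.14). Of 32 antioxidant genes, 5 were lower and none higher. Prdx2, a peroxidase, stood at 279, 160.1 and 138 CPM and was 2.03-fold lower. The median of that list was -0.28 and became 0.05 with the trend removed, when 2 were higher and 1 lower.

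Transcripts of tissues outside the brain differed between the libraries. Alb, the albumin gene of liver (chromosome 5, 90460897 to 90476602), stood at 6.01, 1.97 and 0.160 CPM and 25.1, 0.375 and 1.08 CPM in wild type, and was 37.6-fold lower (16.6 to 105). A list of 23 liver genes, chosen after these values were seen, summed to 24.0, 11.5 and 5.27 CPM under the Csa-/- label and to 65.3, 5.08 and 9.63 CPM in wild type, with 7 at 0 in the 24-month library and 1 at 45 days. Cyp3a11, a cytochrome of liver, had 29 counts at 45 days and none at 24 months, which put it at least 24.2-fold lower against a floor of 3 counts in the library. Liver transcripts were thus highest in the 45-day library of both genotypes.

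Pituitary hormones went the other way. Cga, the shared chain of glycoprotein hormones, stood at 7.54, 68.0 and 39.7 CPM (14.9, 7.12 and 52.7 CPM in wild type) and was 5.27-fold higher (4.35 to 6.44). Prl, prolactin, was 4.16-fold and Gh, growth hormone, 2.97-fold higher. The summed level of 14 pituitary markers was 277, 1950.1 and 891 CPM and 746, 227 and 2021 CPM in wild type, with no order of ages shared by the genotypes. Some olfactory transcripts were higher as well. Omp, the marker of mature olfactory neurons, stood at 1.13, 4.21 and 10.2 CPM and was 9.01-fold higher (5.55 to 15.6), and Cdhr1, a cadherin of photoreceptors and of olfactory bulb neurons, stood at 3.87, 14.7 and 35.6 CPM (6.93, 18.2 and 15.2 CPM in wild type) and was 9.20-fold higher (7.07 to 12.2). S100a5 went from 1 count to 187 counts, a ratio of 74.6 with a counting interval of 13.2 to 2962. Its level stayed under the 5 CPM needed for a call. Among 12 olfactory bulb markers, 4 were higher, with Sp8, a factor of bulb interneurons, at 3.40, 5.43 and 12.5 CPM and 3.68-fold, and 1 was lower (median 0.65; wild type 0.71). The summed level of all 17 bulb markers was close at the ages compared, at 1673 CPM at 45 days and 1727 CPM at 24 months. A list of 20 genes of the olfactory and nasal epithelium, also chosen after values were seen, summed to 361 and 437 CPM. In it 6 genes were at 0 at 45 days and 2 at 24 months, where the library held more counts. Of its 7 genes at 5 CPM, 3 were higher and 1, Gng13, was lower (log2 fold -1.54). Choroid plexus markers had 3 of 14 higher and none lower, with summed levels of 667 and 844 CPM, and F5, a coagulation factor among them, stood at 3.60, 7.05 and 10.0 CPM. Endothelial markers had 2 of 20 higher and 1 lower, near the 7.5% and 8.64% of all genes. Of these Vwf, the adhesive protein of vessel walls, was 2.66-fold higher (2.27 to 3.13) at 11.9, 29.6 and 31.6 CPM. How much of the brain and its coverings each library held was not tested.

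A test of age was possible only over both genotypes together, with 2 libraries at each age, 6 in all and 2 residual degrees of freedom. In edgeR's quasi-likelihood test with genotype as a covariate, 20 of 16560 genes (0.121%) rose from 45 days to 24 months and 9 (0.0543%) fell at a Benjamini-Hochberg adjusted p under 0.05, and 378 had an unadjusted p under 0.05. The calls together made up 0.175% of genes. Gpnmb had the smallest adjusted p of the genes that rose (edgeR log2 fold change 3.79 ± 0.50, adjusted p = 2.35e-07, SE, 2 libraries per age). Each SE is the absolute log2 fold change divided by the square root of the test's F statistic. C4b rose as well (edgeR 2.62 ± 0.40, adjusted p = 2.44e-05), and so did Itgax (edgeR 2.89 ± 0.62, adjusted p = 0.0116) and Clec7a (edgeR 2.29 ± 0.52, adjusted p = 0.0256). Abca8a, a lipid transporter of oligodendrocytes, stood at 8.27, 33.5 and 29.1 CPM and 6.98, 34.3 and 30.3 CPM in wild type, nearly the same course, and rose (edgeR 1.96 ± 0.39, adjusted p = 0.00508). Olfactory and pituitary genes rose too. They included Cdhr1 (edgeR 2.20 ± 0.43, adjusted p = 0.00415), Omp (edgeR 2.18 ± 0.53, adjusted p = 0.0467) and Cga (edgeR 1.99 ± 0.46, adjusted p = 0.0298).

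The transcript 9630013A20Rik fell (edgeR -3.76 ± 0.54, adjusted p = 4.32e-06), as did Col1a1 (edgeR -1.63 ± 0.39, adjusted p = 0.0459) and the liver genes Alb (edgeR -4.66 ± 0.59, adjusted p = 2.35e-07) and Cyp3a11 (edgeR -9.06 ± 1.18, adjusted p = 2.35e-07). Cyp3a11 had no count in the 24-month library labelled Csa-/-, so the size of its fold change and its SE are uncertain. For each of the 12 genes given here the 24-month library lay on the same side of the 45-day library in both genotypes. A test over both genotypes favours such genes, so this is no separate result. The sperm protein gene Tnp2 passed too (edgeR adjusted p = 0.0269), yet its log2 fold under the Csa-/- label was -0.59. Over 12 settings of the test, Gpnmb and Cyp3a11 passed in all, C4b and 9630013A20Rik in 11, Abca8a in 10, Itgax and Alb in 9, Cdhr1 and Cga in 7, and Clec7a, Omp and Col1a1 in 6. Itgax, Clec7a, Cdhr1, Omp, Cga, Col1a1, Alb and 9630013A20Rik did not pass with the trend removed, and the other 4 did. Without the 45-day library labelled Csa-/- only Gpnmb, 9630013A20Rik, Alb and Cyp3a11 of the 12 passed, and without that of wild type Abca8a, Alb and Col1a1 did not. Single libraries moved the counts: without the 45-day library labelled Csa-/- 4 genes rose, without that at 12 months 9, without that at 24 months 52, without wild type at 12 months 8 and without wild type at 24 months 31. The number that fell was 2 without wild type at 45 days, 5 without either 12-month library and 31 without wild type at 24 months. Mog (edgeR adjusted p = 0.783), Ifit1 (edgeR adjusted p = 0.150) and Gfap (edgeR adjusted p = 1) did not pass over both genotypes.

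Set beside wild type at the same ages, with which it shares no library, the age difference under the Csa-/- label was opposite for many genes. Across 12191 genes at 5 CPM in both comparisons, the log2 folds had a Pearson correlation of -0.434 and a Spearman correlation of -0.496. With the trend removed the values were -0.270 and -0.350 over 12143 genes. These correlations are across genes, which are not independent, and describe 4 libraries. Of the genes higher beyond 1.5-fold under the Csa-/- label, 26 were higher in wild type as well (2.77% of 940 and 6.34% of 410), and 188 were lower there. Of those lower, 21 were lower in wild type (1.94% of 1083 and 4.48% of 469), and 176 were higher. With the trend removed, 33 genes were higher in both and 17 lower in both, against 65 and 78 in opposite directions, from wild-type calls of 2.3% in each direction and 4.6% together.

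The ratio of the 2 folds lay beyond 1.5-fold, with its counting interval, in 2064 of 12776 genes (16.2%) with the Csa-/- fold the greater and in 1952 (15.3%) with the wild-type fold the greater, 31.4% together. With the trend removed these were 1285 (10.1%) and 1362 (10.7%), 20.8% together. The trend with length ran in the reverse order in wild type, so a plain ratio of folds holds the trend of both genotypes. Ratios and list counts below are plain unless stated otherwise. Reactive astrocyte genes stood above these shares, with the Csa-/- fold greater in 10 of 17 and smaller in 1, and so did protocadherins with 21 of 25 greater and none smaller. Complement genes had 5 of 14 greater and none smaller, with a ratio for C4b of 2.34 (1.99 to 2.75). Interferon-response genes had 4 of 22 greater and 1 smaller, and activated microglia 2 greater and 2 smaller of 20, shares near or below those of all genes. For Gpnmb the ratio was 2.38 (1.19 to 4.77), which did not clear the bound. Itgb8 had a ratio of 15.6 (12.4 to 19.7), Tnr of 9.41 (8.24 to 10.7) and Pcdhga2 of 8.08 (5.43 to 12.0). Removal of the trend gave ratios of 5.75 for Tnr and 7.99 for Pcdhga2. At the other end the fold of Pmch was 20.9 times smaller than in wild type (17.4 to 25.1) and that of Cartpt 10.3 times smaller (8.67 to 12.2). For Pmch this became 8.05 times smaller with the trend removed. In the respiratory chain 56 of 73 genes had the smaller fold under the Csa-/- label and none the greater. The median log2 folds of that list with the trend removed were -0.27 under the Csa-/- label and 0.03 in wild type. Myelin had 7 of 24 genes with the smaller fold and 1 with the greater. With 1 library per genotype and age, an interaction had no residual and was not tested.

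**Figure D4:**
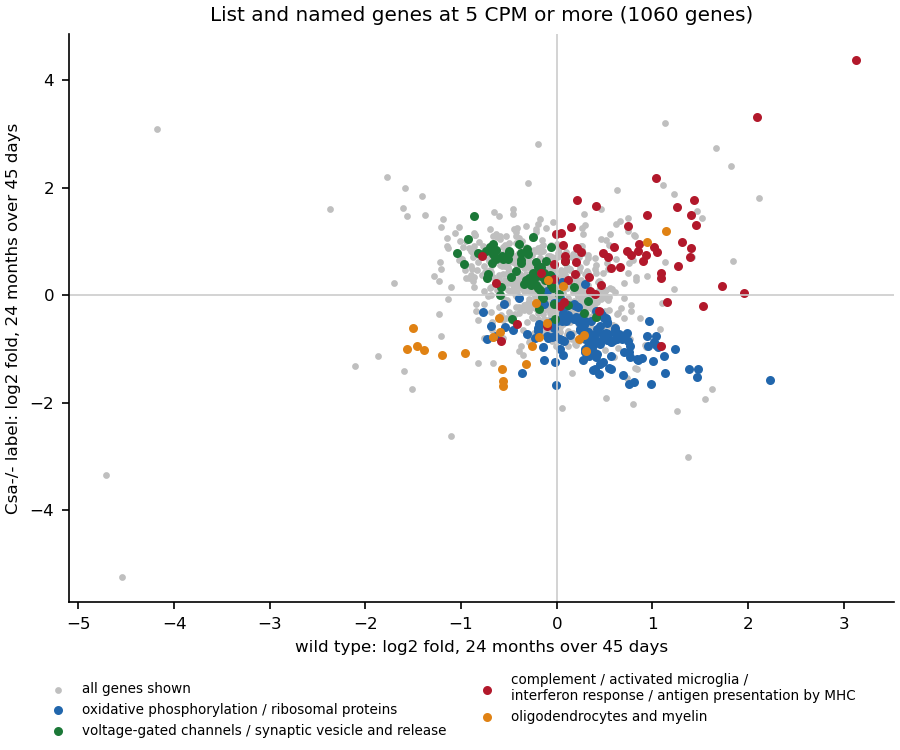
Log2 fold of 24 months over 45 days under the Csa-/- label (vertical axis) against that in wild type (horizontal axis) for 1060 genes of the lists and the named genes with at least 5 CPM in both comparisons, 1 point per gene. Immune glial genes (red) lie mostly at the upper right with Gpnmb at 4.38 and 3.13, channel and vesicle genes (green) mostly at the upper left, respiratory chain and ribosomal genes (blue) mostly at the lower right, and most myelin genes (orange) at the lower left.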

How the data were processed

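Poly(A) RNA of whole mouse brain had been sequenced on a SOLiD instrument, each sample 5 times per the labels' protocols. The authors deposited raw read counts per gene (25239 genes, 30 columns), and per the submitters' processing notes Trimmomatic 0.3.9, HISAT2 2.2.1, SAMtools, Subread 2.0.1 and mm10 were used. The counting options and annotation were not given in the sources used here, and 4 symbols had been changed into dates. The 5 columns of a group were summed, since they are runs of 1 library. The Csa-/- 24-month and 45-day libraries (37712210 and 14762512 counts) entered the main comparison, and the 6 libraries held 14598535 to 37712210 counts. The only p-values come from the age test over both genotypes, and the number of animals in a library is unknown.

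Library sizes were scaled by TMM (edgeR 4.0.16, R 4.3.3). Folds are ratios of scaled counts with exact Clopper-Pearson 95% intervals (scipy 1.17.1), called as the report states. The ratio of folds to wild type has a normal interval from the counts. Age was tested with edgeR's quasi-likelihood test over 6 libraries (genotype and age as terms, Benjamini-Hochberg adjustment). Both computations were tested on simulated data. Exonic length and GC content came from GENCODE M21, matched for 24706 symbols, and their spline was subtracted in an alternative. DESeq2 1.42.0 and limma 3.58.1 served as alternatives, as did other scalings, level minimums, thinned counts and each run or library left out.

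The genes compared and the gene lists were chosen with earlier results of these data known. Named by rule were Ercc8, the 12 largest called folds in each direction, up to 4 called genes of each list with the largest fold, and 6 in each direction by the ratio to wild type and by the age test. Named after their values were seen were Apod, Apoe, Arc, Bdnf, C1qa, C1qb, C1qc, Cck, Cdkn1a, Cp, Dcx, Ddx3y, Ddx58, Dusp1, Egr3, Eif2ak2, Ercc6, Fa2h, Fabp5, Fbln5, Fos, Fosl2, Gfap, H2-Aa, H2-Ab1, H2-D1, Icam1, Ifit3, Ifit3b, Il1r1, Il6st, Itgam, Kcna1, Lyz2, Mal, Mbp, Npas4, Nr4a1, P2ry12, Pcdhac2, Pcdhgc5, Penk, Pnoc, Psmb10, Ptgs2, Scn1a, Scn2a, Serpina3n, Sgk1, Sox10, Sst, Stat3, Tmem119, Ugt8a, Vim and Xist. Marker sums of hypothalamus and of mural cells without shared genes were also added after values were seen. Several called genes of the rule are given only as counts, and a few results are not reported here.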

Additional observations from a re-analysis of the deposited data

Results flagged for a closer look

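For 35 named genes the 24-month library lay beyond 1.5-fold on one side of the 45-day library under the Csa-/- label and beyond 1.5-fold on the other side in wild type. With 1 library per genotype and age the difference between genotypes was not tested. Values are log2 folds of 24 months over 45 days under the Csa-/- label.

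Higher under this label and lower in wild type were matrix receptors and their neighbours, with Itgb8 at 2.19, Tnr at 1.63, Itgav at 1.22, Itga1 at 1.07 (a call lost in 11 of 15 settings) and Cspg4, a proteoglycan of precursor cells and pericytes, at 1.01. Transmitter receptors and the glycine transporter gene Slc6a5 were of this kind too, with Chrm2 at 1.85, Slc6a5 at 1.60, Htr2a at 1.49, Glra1 at 1.16 and Chrna7 at 1.12. Channel and calcium genes were Kcnh7 at 1.47, Itpr1 at 1.16, Kcnma1 at 0.95 and Kcnq3 at 0.90. The synaptic gene Syn3 stood at 1.04, the microtubule gene Map2 at 0.91, the striatal phosphodiesterase gene Pde10a at 0.89 and the secreted guidance gene Reln at 1.12. Foxo3 stood at 1.27, Minar1 at 1.98, and the choroid plexus genes F5 and Enpp2 at 1.47 and 0.66. The ubiquitin pseudogene Ubb-ps stood at 3.09, and its reads may be shared with its parent gene. Its value lay between 1.69 and 3.82 over 15 settings, and its call was lost without the fourth run at 24 months.

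Lower under this label and higher in wild type were the peptide genes Pmch at -3.02, Cartpt at -1.74 and Npy at -0.93. Short genes of mitochondria and ribosomes followed, with Ndufb2 at -1.66, Atp5e at -1.62, Ndufb4 at -1.57, Rps21 at -1.66 and Rps16 at -1.52. The remaining genes were Abhd12b at -2.15, Snord15b at -1.92, Gng13, a G-protein subunit of olfactory and taste cells, at -1.54 and the glutathione transferase gene Gsta4 at -0.96.

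With the trend on exonic length and GC content removed, 16 of the 35 genes were still beyond 1.5-fold in opposite directions in the 2 genotypes. Both calls were lost for Gsta4, Itga1, Npy, Syn3, Kcnma1, Kcnq3, Cspg4, Reln and Map2. The call under the Csa-/- label alone was lost for Enpp2 and Pde10a. The wild-type call alone was lost for Snord15b, Atp5e, Rps21, Itgav, Chrna7, Kcnh7, Itpr1 and Gng13.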

How the results depend on the processing

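The counts of 940 higher and 1083 lower genes for 24 months against 45 days became 181 and 225 beyond 2-fold, and 560 and 616 after removal of the trend, of which 420 and 443 were calls of the plain comparison. DESeq2 on the 10 runs gave 610 and 683. Same-numbered runs deviated together with correlations of 0.015 to 0.106, so the numbers pair nothing, and edgeR tested against 1.5-fold gave 932 and 1070 genes without and 971 and 1104 with a replicate block. Leaving out 1 run gave 871 to 943 higher and 1022 to 1066 lower genes. The age test gave 9 and 4 genes in DESeq2 and 4 and 1 with the trend removed. Leaving out 1 library gave 4 to 52 genes that rose and 2 to 31 that fell. The age-test log2 change of Tnp2, a sperm protein gene, ranged from -0.32 without wild type at 45 days to 4.30 without the 45-day library labelled Csa-/-. The fold exceeded that of wild type in 1285 genes with the trend removed. Of 173 called named genes, 107 kept the call in all 15 settings, 55 lost it with the trend removed, 20 in another setting, and none changed sign. Of 46 lists with 5 or more genes, 40 kept the sign of their median in all settings, and cell division, nucleotide excision repair, antioxidant, neuropeptide, striatal and sex-linked genes did not. The cause of these differences was not tested. With 1 library per age the counting intervals say nothing of variation between mice, and at 14762512 counts a gene with no count at 45 days could lie anywhere up to 0.200 CPM.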
